A study of Mus musculus with 8 samples.

Results

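RNA from wound skin was read for 10 genes that are widely used to describe the activation state of mouse macrophages. They were Nos2, Arg1, Arg2, Mrc1, Cd163, Clec10a, Mgl2, Folr2, Retnla and Chil3, chosen by name, and they are 10 of the 18540 genes of the count table. The control group held 4 samples numbered 1, 2, 3 and 5 (written control-1 and so on), which per the study received PBS. The Z1C2Z group held 4 samples numbered 1, 2, 4 and 5 of wound skin taken after 15 days of ZCZ, a zinc peroxide and ceria nanocomposite on a ZIF-8 framework that was injected around the wound. Z1C2Z is the form with the larger share of ceria, and the stated dose was 100 μg/kg. The labels name the groups con and shiyan and the tissue as skin, and the study's own sample names carry the same numbers with PBS control and Z1C2Z. The strain and age of the sequenced mice, and the day on which the control skin was taken, were not given in the sources used here. The study made wounds in C57BL mice of 6 weeks and in diabetic db/db mice of 10 weeks, with 2 wounds of 10 mm on a mouse. Nothing said which samples came from separate mice, so the p-values measure only the spread between these samples.

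Macrophages in a healing wound take up a range of states. Nos2 encodes the inducible nitric oxide synthase (iNOS), the classical marker of the inflammatory M1 state, and Arg1 encodes arginase 1, which uses the same substrate, arginine, and is a classical marker of the M2 state. The lectin Mrc1 (CD206), the haemoglobin scavenger receptor Cd163, the C-type lectins Clec10a and Mgl2, the folate receptor Folr2 and the secreted proteins Retnla (Fizz1) and Chil3 (Ym1) are read as markers of M2 or tissue-resident macrophages, and several of them are induced by IL-4 and IL-13. The study stained iNOS and CD206 as its M1 and M2 markers and measured arginase, among other readouts. Those were protein measures in cultured macrophages and diabetic wounds, and the form of arginase was not named. The sequencing gives RNA, so its values are not a like-for-like comparison with them.

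Libraries held 28856790 to 38974888 counts, with the lowest total in control-1. Levels are given in CPM, the counts scaled to a common library size, and differences as log2 fold changes of the Z1C2Z group against the control group, so that a negative value is a lower level in the Z1C2Z group. Calls were made at an adjusted p under 0.05 in edgeR's quasi-likelihood test over 15147 genes. The tissue was bulk, so that fewer macrophages, less RNA per macrophage and a different share of RNA from other cells cannot be told apart. A list of 11 general macrophage genes, among them Adgre1 (F4/80), Csf1r, Cd68 and C1qa, was detected in full and summed to between 1184 and 1350 CPM in the control group and between 790 and 1200 CPM in the Z1C2Z group.

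All 10 marker genes passed the low-count filter, and 0 of 10 were called, beside 8.13% of all genes tested. At an unadjusted p under 0.05 the count was 2 of 10 (Nos2 and Mrc1), beside 28.0% of all genes. DESeq2 called 1 of 10, Nos2, beside 2756 of the 18398 genes it tested. In 0 of 10 were the groups free of overlap, beside 17.3% of all genes. The log2 fold change was below 0 for 8 of 10 and above 0 for Mgl2 and Retnla, with a median of -0.41 against 0.0086 over all genes. Without Nos2, 7 of the other 9 genes had a log2 fold change below 0, with a median of -0.32.

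**Figure D1:**
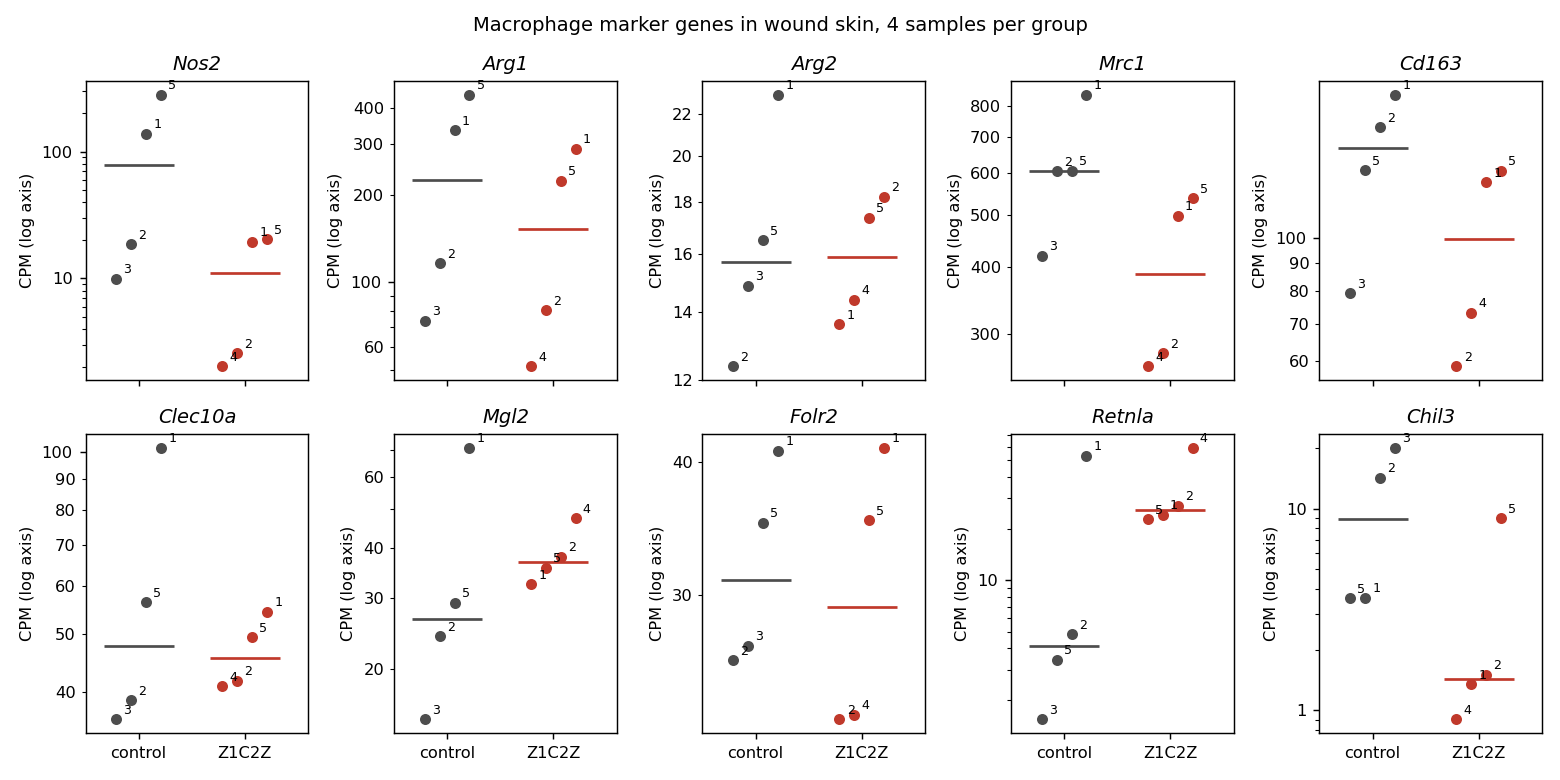
CPM of each of the 10 marker genes on a log axis, with 1 point per sample, the sample number beside it and a line at the group median. Nos2 ran from 2.03 to 281 CPM, the 4 Z1C2Z samples held Retnla at 22.8 to 59.2 CPM while 3 of the 4 control samples held it under 5 CPM, and the groups overlapped for all 10 genes.

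**Figure D2:**
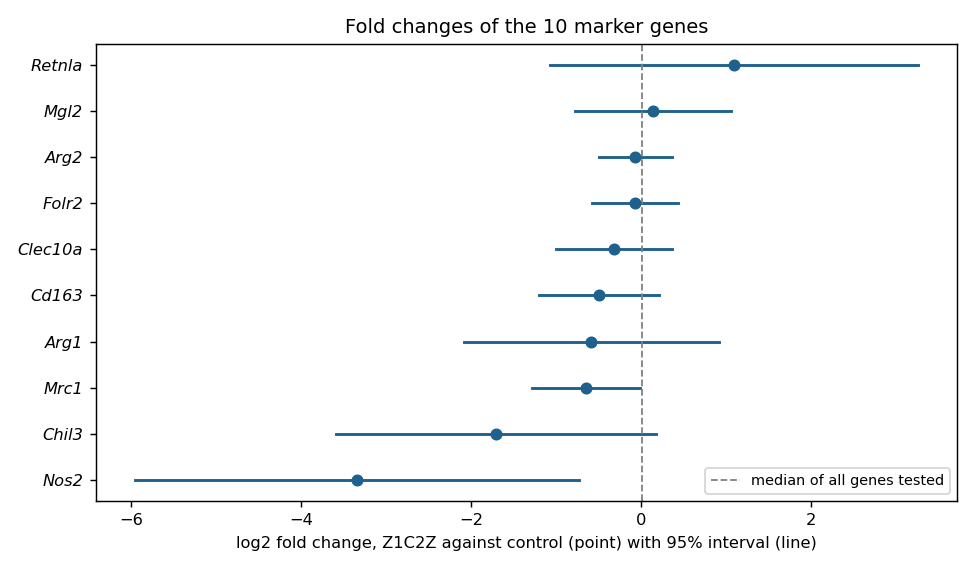
Log2 fold change of each marker gene (point) with its 95% interval (line), ordered by size, and the median of all genes tested (dashed line at 0.0086). The intervals of Nos2 (-5.95 to -0.72) and Mrc1 (-1.29 to -0.0081) did not reach 0 before adjustment for the number of genes.

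Nos2 (Entrez 18126, chromosome 11) had the largest difference among the 10 genes. It stood at 138 CPM in control-1, 18.6 CPM in control-2, 9.97 CPM in control-3 and 281 CPM in control-5. In the Z1C2Z group it stood at 19.5 CPM in Z1C2Z-1, 2.56 CPM in Z1C2Z-2, 2.03 CPM in Z1C2Z-4 and 20.3 CPM in Z1C2Z-5. Each group was split in the same way, with samples 1 and 5 high and the others low, and the high Z1C2Z samples lay at the level of the low control samples. The means were 112 ± 127 CPM and 11.1 ± 10.2 CPM (SD, n = 4 each). The log2 fold change was -3.34 (SE 1.16), with an unadjusted p of 0.0178 and an adjusted p of 0.101 in edgeR's quasi-likelihood test. DESeq2 gave -3.34 with an adjusted p of 0.0329. Permuting the group labels of log2 CPM over all arrangements of 4 against 4 (exact, two-sided) gave p = 0.171, where 0.0286 is the smallest p it can give. Its count was between 81 and 9983 reads, so counting error was small beside the spread between samples. Of the other nitric oxide synthases, Nos3 of the endothelium had a log2 fold change of -1.12 (SE 0.36, adjusted p = 0.0821) and Nos1 of neurons and muscle one of -0.40 (SE 0.42, adjusted p = 0.567).

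Arg1 (Entrez 11846, chromosome 10) followed the same split of samples without a comparable difference between groups. It stood at 334 CPM in control-1, 117 CPM in control-2, 73.8 CPM in control-3 and 445 CPM in control-5. In the Z1C2Z group it stood at 290 CPM in Z1C2Z-1, 80.3 CPM in Z1C2Z-2, 51.4 CPM in Z1C2Z-4 and 224 CPM in Z1C2Z-5. The groups overlapped over most of their range. The log2 fold change was -0.59 (SE 0.66, adjusted p = 0.596), with a 95% interval from -2.08 to 0.91. Deviations of Nos2 and Arg1 from their group means had a Pearson r of 0.984 over the 8 samples, which share library and depth, and this is given as a description without a test.

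Set against Arg1 in the same sample, Nos2 separated the groups. Arg1 exceeded Nos2 by 2.42 times in control-1, 6.25 times in control-2, 7.36 times in control-3 and 1.58 times in control-5. In the Z1C2Z group it exceeded Nos2 by 14.8 times in Z1C2Z-1, 30.7 times in Z1C2Z-2, 24.6 times in Z1C2Z-4 and 11.02 times in Z1C2Z-5. Every Z1C2Z sample lay beyond every control sample, in the direction of less Nos2 per Arg1. Of single genes 17.3% were free of overlap, and no such share was computed for ratios of other gene pairs. The log2 ratio of Nos2 to Arg1 was -1.86 ± 1.07 in the control group and -4.23 ± 0.67 in the Z1C2Z group (SD, n = 4 each), a difference of -2.36, or 5.15-fold. The exact two-sided permutation test gave p = 0.0286, the smallest it can give, and 0.0571 after Benjamini-Hochberg adjustment over the 2 ratios computed. Without Z1C2Z-2 the difference was -2.13 and without Z1C2Z-4 it was -2.23, each with an exact p of 0.0571. The other ratio, Nos2 to Mrc1, was -3.53 ± 2.03 in the control group and -5.77 ± 1.24 in the Z1C2Z group, with overlap. Its difference was -2.24, with an exact permutation p of 0.171, raw and adjusted.

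**Figure D3:**
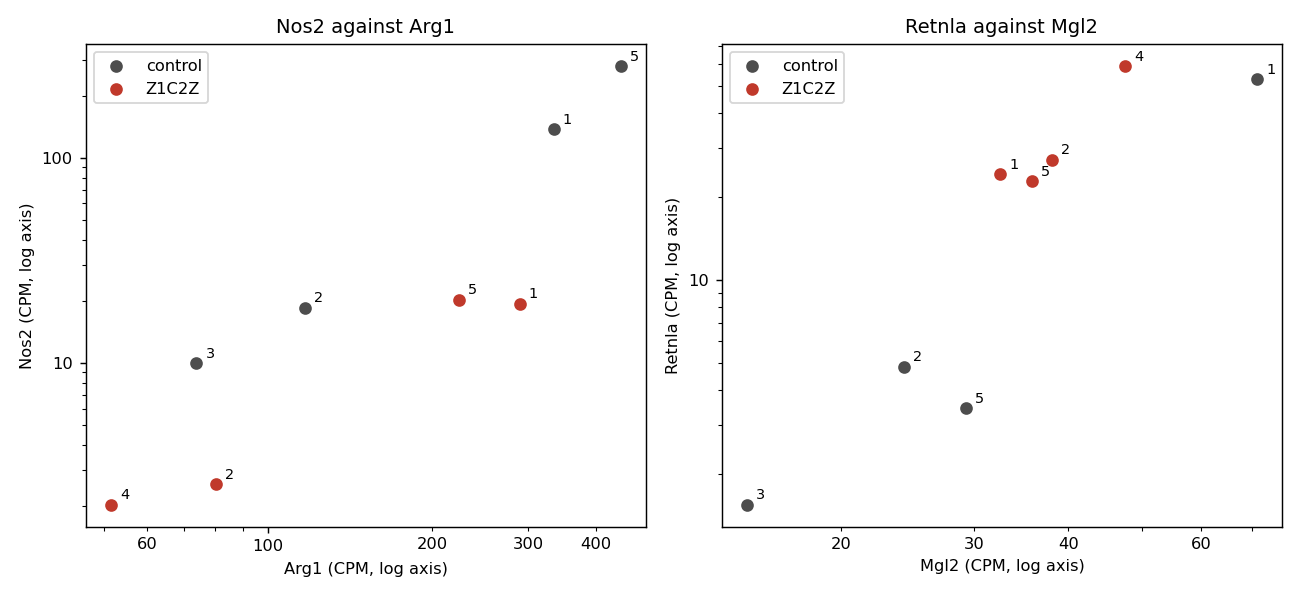
CPM of Nos2 against Arg1 (left) and of Retnla against Mgl2 (right) on log axes, with 1 numbered point per sample. At a like Arg1 level the Z1C2Z samples lie below the control samples in Nos2, and on the right control-1 lies beside the Z1C2Z samples while the other control samples lie below them.

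Arg2 (Entrez 11847, chromosome 12), the mitochondrial arginase, varied little. It was between 12.4 and 23.0 CPM in the control group and between 13.6 and 18.2 CPM in the Z1C2Z group. The difference of -0.07 on the log2 scale (SE 0.19, adjusted p = 0.844) had a 95% interval from -0.50 to 0.36, the narrowest of the 10 genes.

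Around these enzymes, 27 of 30 listed genes of arginine transport, the urea cycle, polyamine synthesis and tetrahydrobiopterin synthesis could be tested, and 2 were called higher and 3 lower. Their median log2 fold change was -0.16, against 0.0086 over all genes, of which 8.13% were called. Of the arginine transporters, Slc7a1 (CAT1), which most cells use, rose by 0.44 on the log2 scale (SE 0.10, adjusted p = 0.0395), from 58.5 to 79.2 CPM on average. Slc7a2 (CAT2), which activated macrophages induce, fell by 0.85 (SE 0.22, adjusted p = 0.0488), from 50.9 to 28.2 CPM. The groups did not overlap for either transporter, as for 17.3% of all genes.

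Ddah1, which degrades the methylarginines that inhibit nitric oxide synthases, fell (-0.92, SE 0.22, adjusted p = 0.0395). Azin2, a regulator of ornithine decarboxylase, fell as well (-0.75, SE 0.18, adjusted p = 0.0411). Cps1, the first enzyme of the urea cycle, rose from a low level of 4.49 to 13.7 CPM (1.604, SE 0.33, adjusted p = 0.0319). Gch1, Odc1 and Ass1, picked for their roles after their values were seen, did not pass. Gch1, which starts synthesis of the cofactor tetrahydrobiopterin, differed by -0.62 (adjusted p = 0.0882). Odc1, which makes putrescine from the ornithine that arginase releases, differed by -0.53 (adjusted p = 0.150). Ass1, which remakes arginine from citrulline, differed by 0.26 (adjusted p = 0.480). The calls of this list depended on single libraries. Leaving out control-2, control-5 or any of Z1C2Z-4, Z1C2Z-2 and Z1C2Z-1 left 0. There were 2 without control-1, 3 without control-3 and 4 without Z1C2Z-5. DESeq2 made 9 calls in this list, beside 2756 of the 18398 genes it tested.

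**Figure D4:**
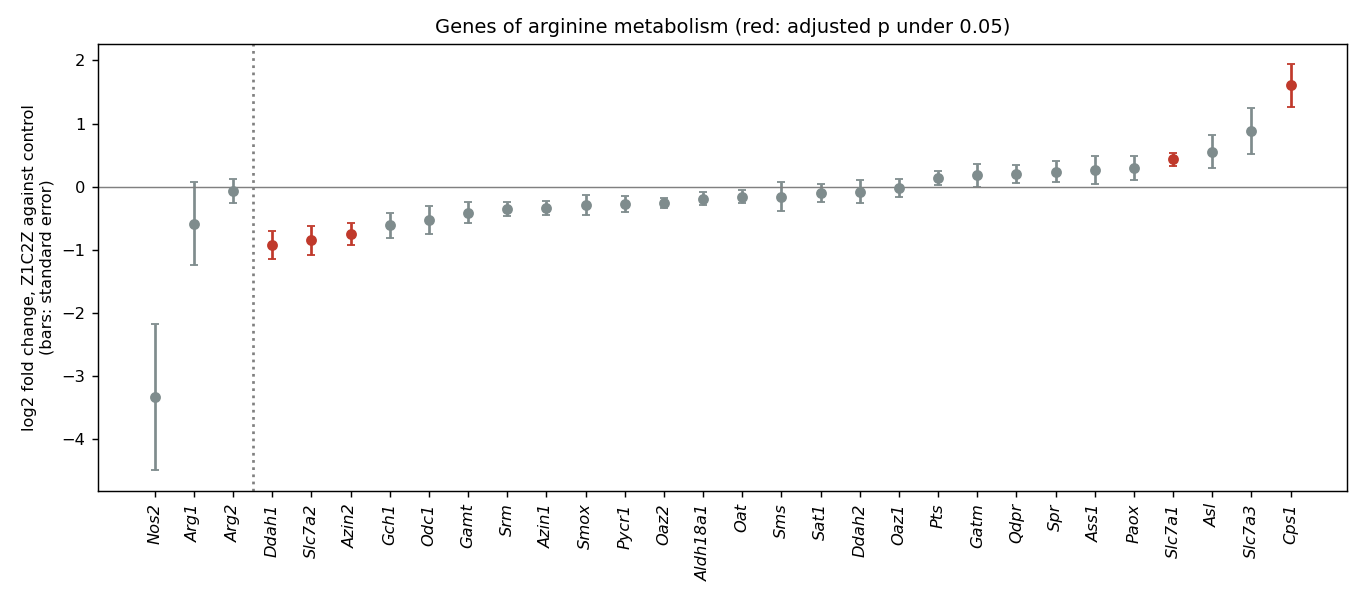
Log2 fold change (point) with its standard error (bar) for Nos2, Arg1 and Arg2, left of the dotted line, and for the 27 tested genes of arginine metabolism in order of size, with red for an adjusted p under 0.05. Nos2 lies at -3.34 with a wide error, and among the others Cps1 and Slc7a1 were called higher and Ddah1, Slc7a2 and Azin2 lower.

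Among the receptors, Mrc1 (Entrez 17533, chromosome 2) was the most abundant in CPM. It stood at 839 CPM in control-1, 603 CPM in control-2, 420 CPM in control-3 and 605 CPM in control-5, and at 499 CPM in Z1C2Z-1, 276 CPM in Z1C2Z-2, 262 CPM in Z1C2Z-4 and 538 CPM in Z1C2Z-5. Z1C2Z-2 and Z1C2Z-4 lay below every control sample, and the other 2 lay within the control range. The log2 fold change was -0.65 (SE 0.28), with an unadjusted p of 0.0477 and an adjusted p of 0.173 in edgeR's test. Cd163 (Entrez 93671, chromosome 6) was between 79.4 and 181 CPM in the control group and between 58.7 and 132 CPM in Z1C2Z samples, a log2 fold change of -0.50 (SE 0.31, adjusted p = 0.328). Mrc1 and Cd163 deviated together across samples, with a Pearson r of 0.948 over 8 samples. Folr2 (Entrez 14276, chromosome 7) was between 26.03 and 41.0 CPM in the control group and between 22.9 and 41.3 CPM in the Z1C2Z group, with a log2 fold change of -0.07 (SE 0.23, adjusted p = 0.858).

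Clec10a (Entrez 17312) and Mgl2 (Entrez 216864), neighbouring genes on chromosome 11, encode lectins that bind galactose and N-acetylgalactosamine. Their longest coding sequences in GENCODE were identical at 91.1% of 922 aligned bases, so reads may have been split between them in counting and each value is uncertain to that extent. Clec10a stood at 102 CPM in control-1, 38.9 CPM in control-2, 36.1 CPM in control-3 and 56.4 CPM in control-5, and between 40.9 and 54.3 CPM in the Z1C2Z group. On the log2 scale the difference was -0.32 (SE 0.30, adjusted p = 0.520). Mgl2 stood at 71.1 CPM in control-1, 24.2 CPM in control-2, 15.01 CPM in control-3 and 29.3 CPM in control-5. In the Z1C2Z group it stood at 32.5 CPM in Z1C2Z-1, 38.1 CPM in Z1C2Z-2, 47.5 CPM in Z1C2Z-4 and 35.8 CPM in Z1C2Z-5. All Z1C2Z samples lay above all control samples but control-1. For Mgl2 the log2 fold change was 0.14 (SE 0.41, adjusted p = 0.845), and without control-1 it was 0.75 (adjusted p = 0.0710). Without control-1 that of Clec10a was 0.083, above 0.

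The secreted markers Retnla and Chil3, both textbook targets of IL-4 signalling through STAT6, had log2 fold changes of opposite sign. The 250 bases before the RefSeq start of each gene (build GRCm38.p6) are shown because both genes are read as reporters of this pathway. Capitals mark a match to the STAT6 form of the interferon-gamma-activated site, TTCNNNNGAA, searched on both strands. The Retnla window is chr16:48842359-48842608 on the plus strand and the Chil3 window is chr3:106167565-106167814 on the minus strand, both written 5′ to 3′.
Retnla: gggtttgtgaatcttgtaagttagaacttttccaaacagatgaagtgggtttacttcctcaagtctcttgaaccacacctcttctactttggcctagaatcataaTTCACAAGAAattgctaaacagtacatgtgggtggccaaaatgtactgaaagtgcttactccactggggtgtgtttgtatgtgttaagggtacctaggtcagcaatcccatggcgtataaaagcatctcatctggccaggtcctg
Chil3: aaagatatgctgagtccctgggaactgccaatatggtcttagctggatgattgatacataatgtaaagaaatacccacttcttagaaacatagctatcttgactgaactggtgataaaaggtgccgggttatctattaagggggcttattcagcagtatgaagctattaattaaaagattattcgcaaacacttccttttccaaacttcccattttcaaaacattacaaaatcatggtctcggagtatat
Retnla held 1 such match, TTCACAAGAA, whose first base was 145 bases before the start, and a C/EBP match (TTGCNNAA) followed it at 134 bases before the start without overlap. Chil3 held none, and held a match with a spacer of 3 (TTCNNNGAA), TTCTTAGAA, at 172 bases before the start. Of 32851 mouse windows of this length, 5.85% held the STAT6 letters, 7.02% the form with a spacer of 3 and 9.56% the C/EBP letters. The table held windows for 6 of the 10 genes, and of these Retnla alone had a STAT6 match. A match of letters is a description of these windows and was not tested as a binding site.

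Retnla (Entrez 57262) stood at 53.1 CPM in control-1, 4.86 CPM in control-2, 1.54 CPM in control-3 and 3.44 CPM in control-5. It stood at 24.1 CPM in Z1C2Z-1, 27.2 CPM in Z1C2Z-2, 59.2 CPM in Z1C2Z-4 and 22.8 CPM in Z1C2Z-5. The Z1C2Z samples were within 2.60-fold of each other, whereas control-1 was 34.4-fold above control-3, and control-1 alone made the groups overlap. On the log2 scale Retnla differed by 1.09 (SE 0.96, adjusted p = 0.486). Without control-1, singled out here by its Retnla value, it was 3.34, with an adjusted p of 0.0290 in edgeR's test. With all samples the exact permutation p was 0.114, and DESeq2 gave Retnla no adjusted p. Control-1 also had the highest Mrc1, Cd163, Clec10a, Mgl2 and Arg2 of the 8 samples, the smallest total count, and the highest sum of 10 skeletal muscle genes (6056 CPM, against 2762 to 4445 CPM in the other samples). What part, if any, the muscle content of this sample had in these values was not tested.

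Chil3 (Entrez 12655), a chitinase-like lectin without chitinase activity, had another order of samples. It stood at 3.62 CPM in control-1, 14.2 CPM in control-2, 20.02 CPM in control-3 and 3.61 CPM in control-5. In the Z1C2Z group it stood at 1.35 CPM in Z1C2Z-1, 1.503 CPM in Z1C2Z-2, 0.904 CPM in Z1C2Z-4 and 8.98 CPM in Z1C2Z-5. Of the Z1C2Z samples, 3 lay below every control sample and Z1C2Z-5 lay within the control range. On the log2 scale Chil3 differed by -1.71 (SE 0.83, adjusted p = 0.215). Without Z1C2Z-5, singled out here by its Chil3 value, the difference was -3.05 with an adjusted p of 0.0292 in edgeR's test. The coding sequence of Chil3 was identical to that of Chil4 at 95.4% of 1194 aligned bases. Chil4 itself held 1 to 35 counts in a sample, too few to be tested. Chil3 was the gene whose deviations went with the fewest other markers, with Pearson r between -0.60 and 0.10 over 8 samples, while Retnla and Mgl2 went together at 0.967.

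Per kilobase of exon (GENCODE annotation of GRCm38), which allows levels to be compared between genes, Arg1 and Mrc1 had the highest means in both groups. In the control group Arg1 had 109 ± 79.3 and Mrc1 96.8 ± 26.9 CPM per kb (SD, n = 4 each), and their ranges overlapped. The means of Retnla (26.3 ± 41.7), Nos2 (25.4 ± 28.8), Cd163 (25.2), Folr2 (20.9), Clec10a (20.1) and Mgl2 (16.7) followed, with neighbours that differed by less than their spread, and Arg2 (11.7) and Chil3 (6.36) came last. In the Z1C2Z group the order was Arg1 (72.5), Mrc1 (61.8), Retnla (55.6), Folr2 (19.8), Mgl2 (18.4), Cd163 (17.8), Clec10a (16.1), Arg2 (11.1), Nos2 (2.51) and Chil3 (1.95). Here the lowest Retnla sample (38.0 CPM per kb) lay above the highest Folr2 sample (26.7), and the lowest Arg2 sample (9.54) above the highest Nos2 sample (4.61) and the highest Chil3 sample (5.50). The lowest Clec10a sample (14.1) also lay above the highest Arg2 sample (12.8), and the ranges of all other neighbours in this order overlapped. The control mean of Nos2 rested mostly on control-1 and control-5, and that of Retnla on control-1 alone. Nos2 ranked 7 of 10 in control-1 and 3 of 10 in control-5 but 10 of 10 in control-2 and control-3, and it ranked 9 or 10 of 10 in the Z1C2Z samples. Retnla stood at 88.7 CPM per kb in control-1 (rank 3) and at 2.57 to 8.11 in the other control samples (rank 9 in each), and it ranked 1 or 3 in the Z1C2Z samples.

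The mean log2 CPM of the 11 general macrophage genes was 6.50 ± 0.14 in the control group and 6.17 ± 0.29 in the Z1C2Z group, a difference of -0.34 with an exact permutation p of 0.0857 (n = 4 each). Of these genes 0 of 11 were called, beside 8.13% of all genes. In edgeR's test 4 of 11 had an unadjusted p under 0.05, beside 28.0% of all genes. The log2 fold change was below 0 in 11 of 11, with a median of -0.34 against 0.0086 over all genes. Each marker was then read relative to the mean log2 CPM of these 11 genes in the same sample. The difference between groups was -2.59 for Nos2 (exact p = 0.171), 2.65 for Retnla (exact p = 0.114) and -1.58 for Chil3 (exact p = 0.143). For the other 7 it lay between -0.34 (Mrc1) and 0.71 (Mgl2), with exact p from 0.286 to 0.800. These are differences of mean log2 CPM, a scale on which single high samples weigh less than in the fold changes of edgeR. On this scale and before the general genes were subtracted, the differences were -2.93 for Nos2, 2.31 for Retnla, -1.92 for Chil3 and -0.68 for Mrc1. Those of Arg2 (-0.042), Clec10a (-0.20) and Folr2 (-0.096) lay below 0 before and above 0 after the subtraction. None of the 10 relative differences had an exact p under 0.05. Without control-1, Retnla gave 3.74 and Mgl2 1.18, each with an exact permutation p of 0.0286, the smallest this reduced set can give. Control-1 had the highest control value of both genes and was singled out by these values, so this p is no independent support.

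**Figure D5:**
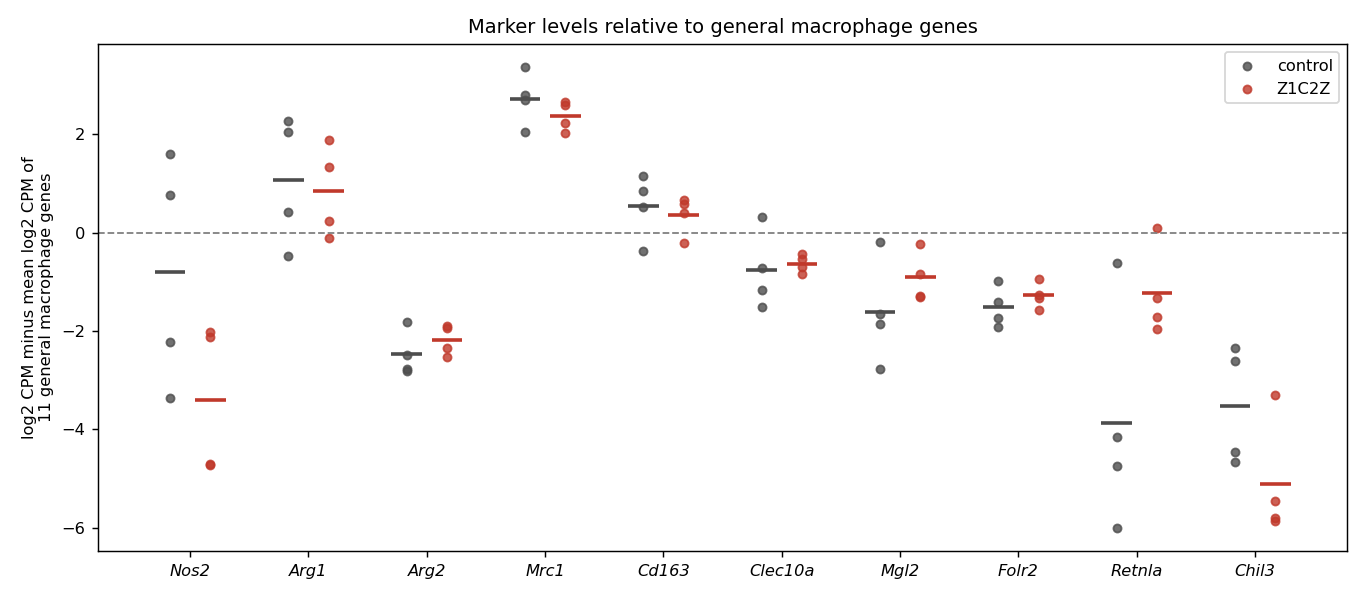
Log2 CPM of each marker minus the mean log2 CPM of 11 general macrophage genes, per sample (points) with the group mean (line). The mean difference was -2.59 for Nos2 and 2.65 for Retnla, and the points of both groups overlapped for all 10 genes.

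The genes most like each marker were sought among all other tested genes by the Pearson r of deviations from the group means over the 8 samples, as a description without a test. Nearest to Nos2 were Hbegf (0.989), a growth factor of the EGF family, Unc13a (0.985) and Ntng1 (0.985). Nearest to Arg1 were Chrdl1 (0.993), Wfdc17 (0.989) and Ntng1 (0.982), so that Ntng1 was near both. Nearest to Folr2 was Cd80 (0.995), a costimulatory ligand, nearest to Clec10a were Matn3 (0.992) and Mmp27 (0.989), and nearest to Mrc1 and Cd163 were Gm3776 (0.994) and Clec2e (0.990). D030056L22Rik was among the 3 nearest of both Mgl2 (0.982) and Retnla (0.983), whose first were Cebpz (0.983) and Atg12 (0.988). Nearest to Arg2 was Gap43 (0.984) and nearest to Chil3 was Il18rap (0.976). With 8 samples and 15147 genes these values rank genes and show no relation beyond that.

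Other genes of classical activation were lower where they passed. Of 19 tested, 0 were called higher and 5 lower, beside 8.13% of all genes called, with a median log2 fold change of -0.93. The cytokine Il6 fell by 5.51 on the log2 scale (SE 1.23, adjusted p = 0.0356), from 84.3 to 1.85 CPM on average, and Ptgs2, which encodes cyclooxygenase 2, fell by 4.22 (SE 1.11, adjusted p = 0.0494). In both, control-1 and control-5 held most of the control signal, as for Nos2, with Il6 at 174 and 150 CPM against 5.19 and 7.49 CPM in control-2 and control-3. Socs3, a feedback inhibitor of cytokine signalling, fell by 2.11 (adjusted p = 0.0299). The costimulatory ligands Cd80 (-1.34, adjusted p = 0.0300) and Cd86 (-0.82, adjusted p = 0.0311) fell. Among the upstream genes that induce Nos2, 0 of 14 were called higher and 5 lower, beside the same 8.13%, with a median of -0.45. Those called were Hif1a (-0.81, adjusted p = 0.0303), the adaptor Myd88 (-0.43, adjusted p = 0.0419), the NF-κB subunits Nfkb1 (-0.57, adjusted p = 0.0470) and Rela (-0.46, adjusted p = 0.0498), and the interferon-gamma receptor chain Ifngr1 (-0.38, adjusted p = 0.0499). Ifng had between 4 and 22 counts per sample and could not be tested.

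Other genes of alternative activation gave 0 higher and 2 lower of 20, a share close to the 8.13% of all genes, with a median of -0.26. The crosslinking enzyme Tgm2 fell (-0.93, adjusted p = 0.0303), and so did Socs2 (-0.62, adjusted p = 0.0299). A wider list around IL-4 and IL-13 also held genes outside their pathway, such as Il33, Il1rl1, Csf1 and Il34. Of its 15 tested genes 0 were called higher and 2 lower, beside 8.13% of all genes called, with a median of -0.46. Il4ra, the receptor chain that both cytokines share, stood between 146 and 289 CPM in the control group and between 48.7 and 132 CPM in the Z1C2Z group, and fell by 1.36 (SE 0.33, adjusted p = 0.0414). Il1rl1, the receptor of IL-33, fell by 2.63 (SE 0.29, adjusted p = 0.0232). Il4 had at most 10 and Il13 at most 4 counts in any sample, and neither could be tested. Stat6, the factor they act through, differed by -0.27 (adjusted p = 0.0747). Among 14 genes of resident-like macrophages, such as Lyve1, F13a1 and Selenop, 0 were called in either direction, with a median of -0.35. The calls in these lists and the preceding ones of classical activation depended on single libraries. On leaving out control-5 or any of Z1C2Z-4, Z1C2Z-2 and Z1C2Z-1, edgeR called 0 genes of any list and 0 genes in the whole table, while between 3100 and 4208 genes had an unadjusted p under 0.05. Without control-2 it called 3 genes of classical activation, 0 of the Nos2 inducers, 1 of alternative activation and 1 of the list around IL-4. The Nos2 inducers numbered 2 without control-1 or without control-3 and 3 with no low-count filter. The list around IL-4 gave 4 calls without control-3 or without Z1C2Z-5.

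Some marker lists of other cells of wound skin held called genes as well, to be read beside the 8.13% called over all genes. Of 13 hair follicle genes 11 were called higher and 0 lower, and their sum was between 665 and 3904 CPM in the control group and between 4776 and 16334 CPM in the Z1C2Z group. Leaving out control-2 or any of control-5, Z1C2Z-4, Z1C2Z-2 and Z1C2Z-1 left 0 of these calls. Within each group the samples 1 and 5, which held the most Nos2 and Arg1, held the least of this sum (739 and 665 CPM in control-1 and control-5, 9649 and 4776 CPM in Z1C2Z-1 and Z1C2Z-5). Of 11 tested neutrophil genes 0 were called, with a median of -1.12 and sums of 732 to 1547 CPM and 173 to 767 CPM. S100a9 and S100a8 had the highest control means of this list, 628 and 378 CPM, against 244 and 157 CPM in the Z1C2Z group. Ly6g, Mpo and Elane, with at most 19 counts in any sample, could not be tested. Muscle genes gave 0 higher and 3 lower of 10 (sums of 3300 to 6056 CPM and 2762 to 3071 CPM), and fibroblast genes 0 higher and 2 lower of 7 (Dcn and Lum). Lymphatic genes gave 1 lower of 7 (Pdpn), while dendritic cell genes (0 of 9), epidermal genes (0 of 10) and adipocyte genes (0 of 8) gave no call. No listed gene found in the table was at 0 counts in all 8 samples. The part of these cells in the values of the marker genes was not tested.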

How the data were processed

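The deposited values are whole-number read counts per gene, not normalized by the authors, in 1 table of 18540 genes and 8 samples. Of its per-sample columns, 0 were left unused. Per the labels ribosomal RNA was depleted and libraries were made with dUTP in the second strand. The labels name Trizol for extraction and the study's methods name another kit. The aligner, counting program, genome build and strand setting were not given in the sources used here, and they decide how reads shared by near-identical genes were assigned.

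Samples were grouped by their titles. Tests were run with edgeR 4.0.16 in R 4.3.3 (filterByExpr, TMM normalization, quasi-likelihood test, no covariates, Benjamini-Hochberg adjustment over 15147 genes). Standard errors came from the quasi-likelihood F statistic. Log2 CPM used a prior count of 2, and exact two-sided permutation tests used the 70 arrangements of 4 samples against 4. Lists were described by counts and medians, with no set test. The alternatives were DESeq2 1.42.0, RLE size factors, other low-count filters, a prior count of 0.5, 3 reference genes, the sample number as a block, and each sample left out in turn. No pair of libraries agreed within sampling noise. The steps were tested on simulated counts.

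The 10 genes and the lists were chosen with earlier results of these data known. The text names all 10 with their values and the called genes of each list, except those of hair follicle and muscle, which are given as counts. It also names a few genes of other lists as examples, some of the paralogs, and some of the 3 genes most like each marker. Other genes named beside a result (Gch1, Odc1, Ass1, Stat6, Ifng, Il4, Il13 and untested neutrophil genes) were chosen after their values were seen. Exon lengths and coding sequences came from GENCODE's mouse annotation, and promoter windows from RefSeq (GRCm38.p6, 6 of 10 genes matched by symbol).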

Additional observations from a re-analysis of the deposited data

Results flagged for a closer look

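Dixon's test was run on 44 sets of 4 samples (the 10 marker genes as log2 CPM and relative to general macrophage genes, and the 2 ratios, in each group), where chance flags about 1 in 20. It flagged 1. Chil3 relative to the general macrophage genes stood at -3.29 in Z1C2Z-5, against -5.45 in the nearest other Z1C2Z sample, a gap of 0.843 of the range of the group. The Chil3 level itself was 8.98 CPM in this sample.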

How the results depend on the processing

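Of the 10 marker genes, edgeR called 0, also with RLE size factors, no low-count filter or at least 10 counts in every sample. DESeq2 called 1 (Nos2) and so did the sample number as a replicate block (Nos2, -3.17, adjusted p = 0.00207). The numbers 1, 2 and 5 occur in both groups. Correlations of deviations within these pairs were -0.101, -0.0623 and 0.323, and only number 5 matched its own number best. Such correlations cannot decide whether samples of the same number share a mouse or a batch, and the sources used here did not say. Over all genes the block gave 554 calls and DESeq2 gave 2756, against 1231 in the main fit. Leaving out each sample gave 0 to 1 called markers (Retnla without control-1, Chil3 without Z1C2Z-5). List genes called numbered 36, with DESeq2 73, and 0 to 47 on leaving out each sample. With a sample left out, the log2 fold change crossed 0 for Arg2 (-0.19 to 0.12), Clec10a (-0.49 to 0.083), Mgl2 (-0.099 to 0.75, and -0.054 with the block) and Folr2 (-0.24 to 0.057), as did the level relative to general macrophage genes for Arg1 (-0.74 to 0.17), Cd163 (-0.48 to 0.024) and Clec10a (-0.11 to 0.50). The Nos2 to Arg1 difference was -2.70 to -1.96 on leaving out each sample, with exact permutation p of 0.0571 without Z1C2Z-2 (-2.13) or Z1C2Z-4 (-2.23). The log2 fold change kept its sign under every alternative for Nos2 (-3.81 to -2.31), Mrc1, Cd163, Arg1, Retnla (0.67 to 3.34) and Chil3 (-3.05 to -1.11). The causes were not tested. With 4 samples a group an exact test cannot give a p under 0.0286. Counts of the markers were lowest for Chil3 (down to 36) and for Retnla in the control group (down to 56). Samples differed by up to 9.94-fold for Chil3 in the Z1C2Z group and 34.4-fold for Retnla in the control group. Ifng, Il4 and Il13 had too few counts to be tested.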
